A study of Mus musculus with 4 samples.

Results

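The genes of the major histocompatibility complex (MHC) described here were 10 of the 24322 gene symbols listed for each of 4 retinal libraries. The 5 of the class II route were the chain genes *H2-Ab1*, *H2-Aa* and *H2-Eb1*, the invariant chain gene *Cd74*, and *Ciita*, which encodes the class II transactivator. The 5 of the class I route were *H2-K1*, *H2-D1*, *H2-T9*, *H2-T23* and *B2m*. They were selected on earlier results of the same libraries, namely their FPKM (read levels scaled to transcript length and to the mapped reads of a library) in control against *Rax* iCKO cells. Their differences between those groups are therefore given as a description, without a test. All 10 were found in the files. The mean FPKM over the 4 libraries was at least 1 for 6 of them and under 1 for 4.

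The cells were mTFP-positive cells sorted from whole retinas of mice given tamoxifen at postnatal day 4 (P4) and harvested at P14. Both groups carried *Rlbp1-CreERT2*, a transgene in which a promoter fragment of the Müller glial gene *Rlbp1* drives a tamoxifen-dependent Cre recombinase, and the Cre reporter *R26-CAG-LoxP-mTFP1*. The *Rax* iCKO mice (7983 and 3914) were *Rax* flox/flox. The control mice (7984 and 3911) were *Rax* flox/WT, so that controls had 1 floxed allele of this homeobox gene and also received tamoxifen. Libraries are named below by their group and mouse number. Each was labelled with a different mouse number, and the labels give 129S6 as the strain. The transgenic founders came from B6C3F1 eggs and were backcrossed to a 129 strain, and the MHC haplotype of these mice is not given in the sources used here. The comparison asked what the loss of *Rax* does to the RNA of Müller glia, the main glia of the retina.

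*Rax* itself was at 189 and 181 FPKM in controls 7984 and 3911 and at 111 and 98.4 FPKM in *Rax* iCKO 7983 and 3914. Low FPKM values lay on steps of whole reads for 1300 of 1504 low genes (86.4%, within 0.02 reads). These steps put the depth of mouse 7984 at 1.35 times that of mouse 7983, and the other libraries at 0.98 and 0.99 times. The 12 Müller glia markers tested were abundant in every library and summed to 10895 to 15979 FPKM. Of 12363 genes whose mean FPKM reached 1, limma called 3 at an adjusted p under 0.05 (0.0243%), which were *Xist*, *Mir568* and *Mir6538*. *Xist*, an RNA of the inactive X chromosome, stood at 24.5 and 21.2 FPKM in the controls and at 0.0119 and 0.00605 FPKM in *Rax* iCKO, whereas the Y-linked gene *Eif2s3y* was above 0 only in *Rax* iCKO 7983, at 43.7 FPKM. The sex of the mice is not given in the labels, and the part of sex in the values below was not tested.

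MHC class I molecules sit on nearly all nucleated cells and show peptides from inside the cell to CD8 T cells. Each consists of a heavy chain, such as those of *H2-K1* and *H2-D1*, bound to beta-2-microglobulin, the product of *B2m*. Class II molecules are pairs of an alpha and a beta chain that show peptides taken up from outside to CD4 T cells, and they are made mainly by dendritic cells, B cells and macrophages. The invariant chain guides newly made class II molecules to the compartment where peptides are loaded, and CIITA switches the class II genes on, including after interferon gamma. In the retina, both classes are low in the healthy tissue, and microglia and Müller glia can raise them under inflammation.

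Sequence in front of these genes is shown for 4 of them. RefSeq promoters (GRCm38.p6) matched 6 of the 10 members, *H2-Aa*, *H2-Eb1*, *H2-K1*, *H2-D1*, *H2-T23* and *B2m*. Class II promoters are bound by the RFX complex, CREB and NF-Y, which together recruit CIITA. Promoters of classical class I genes are also known for an NF-kB site and an interferon site. The 250 bases before the start are shown for both class II chain genes that matched, whose few reads varied between libraries, and for *H2-K1* and *H2-D1*, which lie in the same complex and behaved differently. Capitals mark matches on either strand to TGATTGG (the Y box with its flank, which contains the CCAAT box in reverse), to the letters CCAAT (the CCAAT box), to the letters TGACG (the core of a CREB site), to GGGATTCCC (the NF-kB site) and to TTTCACTT (the interferon site). The windows lie at chr17:34287824-34288073 (minus strand) for *H2-Aa*, chr17:34305617-34305866 (plus) for *H2-Eb1*, chr17:34000348-34000597 (minus) for *H2-K1* and chr17:35262844-35263093 (plus) for *H2-D1*. For *H2-K1* 2 starts are listed. The one farther upstream was used, and its window lies inside the outer bound of the gene given below.
H2-Aa: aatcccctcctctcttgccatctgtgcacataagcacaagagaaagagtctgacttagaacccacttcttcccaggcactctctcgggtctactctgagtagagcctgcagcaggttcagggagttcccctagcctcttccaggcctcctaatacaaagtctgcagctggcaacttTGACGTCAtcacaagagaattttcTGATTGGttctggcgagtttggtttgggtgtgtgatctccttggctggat
H2-Eb1: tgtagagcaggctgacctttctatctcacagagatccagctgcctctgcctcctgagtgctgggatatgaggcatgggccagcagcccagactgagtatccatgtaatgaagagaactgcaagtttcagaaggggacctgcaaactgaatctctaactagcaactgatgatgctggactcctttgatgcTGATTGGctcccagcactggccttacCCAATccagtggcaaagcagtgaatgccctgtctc
H2-K1: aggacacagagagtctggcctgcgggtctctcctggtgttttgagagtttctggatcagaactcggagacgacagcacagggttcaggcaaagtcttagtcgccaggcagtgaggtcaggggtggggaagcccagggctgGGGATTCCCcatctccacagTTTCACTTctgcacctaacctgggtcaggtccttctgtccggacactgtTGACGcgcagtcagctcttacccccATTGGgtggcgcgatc
H2-D1: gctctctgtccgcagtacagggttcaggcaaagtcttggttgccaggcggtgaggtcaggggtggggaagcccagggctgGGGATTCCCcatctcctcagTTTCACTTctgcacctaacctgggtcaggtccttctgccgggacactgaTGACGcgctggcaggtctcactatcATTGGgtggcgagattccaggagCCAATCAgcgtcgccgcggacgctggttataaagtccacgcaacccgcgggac

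Both class II promoters held the Y box TGATTGG on the sense strand, beginning 50 bases before the start in *H2-Aa* and 61 bases before it in *H2-Eb1*. The motif is found in 2375 of 32851 promoters of the same length (7.23%). *H2-Aa* also held the CREB core on both strands, at a site whose copies begin at positions -74 and -71. *H2-K1* and *H2-D1* shared the NF-kB site, the interferon site, the CREB core and a reversed CCAAT box in the same order, and 161 of the 177 bases that could be aligned, out of 250 in each window, were the same (91.0%). The NF-kB site is held by 99 of the 32851 promoters (0.301%) and the interferon site by 447 (1.36%), against 17.8% for the CREB core and 33.8% for the CCAAT box. The window of *H2-D1* also held the Y box, in reverse at position -53, that is, closer to the start than its CCAAT box at position -76. The matching CCAAT box of *H2-K1* begins at position -16, so the place of the Y box would fall past the end of the *H2-K1* window. The windows of *H2-T23* and *B2m*, which are not printed, held neither the NF-kB site nor the interferon site in these letters. *H2-T23* held the Y box in reverse at position -52, and *B2m* held the CREB core at position -78 and a reversed CCAAT box at position -53. These are matches of letters in the reference and no measurement of binding in these cells.

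Class I RNA was far more abundant than class II RNA on the FPKM scale. *H2-D1* and *B2m* averaged 35.1 and 32.3 FPKM over the 4 libraries and *H2-K1* 22.8, and the ranges of these 3 genes overlapped. *H2-Ab1* followed at 9.04 FPKM, and it lay below *H2-K1* in each of the 4 libraries. *H2-T23* at 4.48 FPKM overlapped *H2-Ab1* in range, since *H2-Ab1* was the lower of the pair in *Rax* iCKO 7983. *Cd74* at 2.36 FPKM was below *H2-T23* in each library. The lowest members were *H2-Eb1* at 0.632, *H2-T9* at 0.584, *H2-Aa* at 0.471 and *Ciita* at 0.0895 FPKM, and the ranges of these 4 overlapped. *Cd74* was above each of them in every library.

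Between the groups, 3 of the 10 members, *H2-Ab1*, *H2-T9* and *B2m*, were lower in both *Rax* iCKO mice than in either control, and 2, *Ciita* and *H2-T23*, were higher in both. The groups overlapped for *H2-Aa*, *H2-Eb1*, *Cd74*, *H2-K1* and *H2-D1*. Of all 17865 genes above 0 in any library, 14.5% had both *Rax* iCKO libraries below both controls and 13.7% had them above. The members were chosen on this contrast, so nothing is read from their counts against these shares. The median difference of the 10 members, *Rax* iCKO minus control in mean log2(FPKM + 1), was -0.27, beside -0.011 over the 17865 genes. This median rested on *Rax* iCKO 7983, and it was 0.032 without that library and -0.097 without control 3911. In sorted cells, fewer cells of a type and less RNA per cell cannot be told apart.

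**Figure D1:**
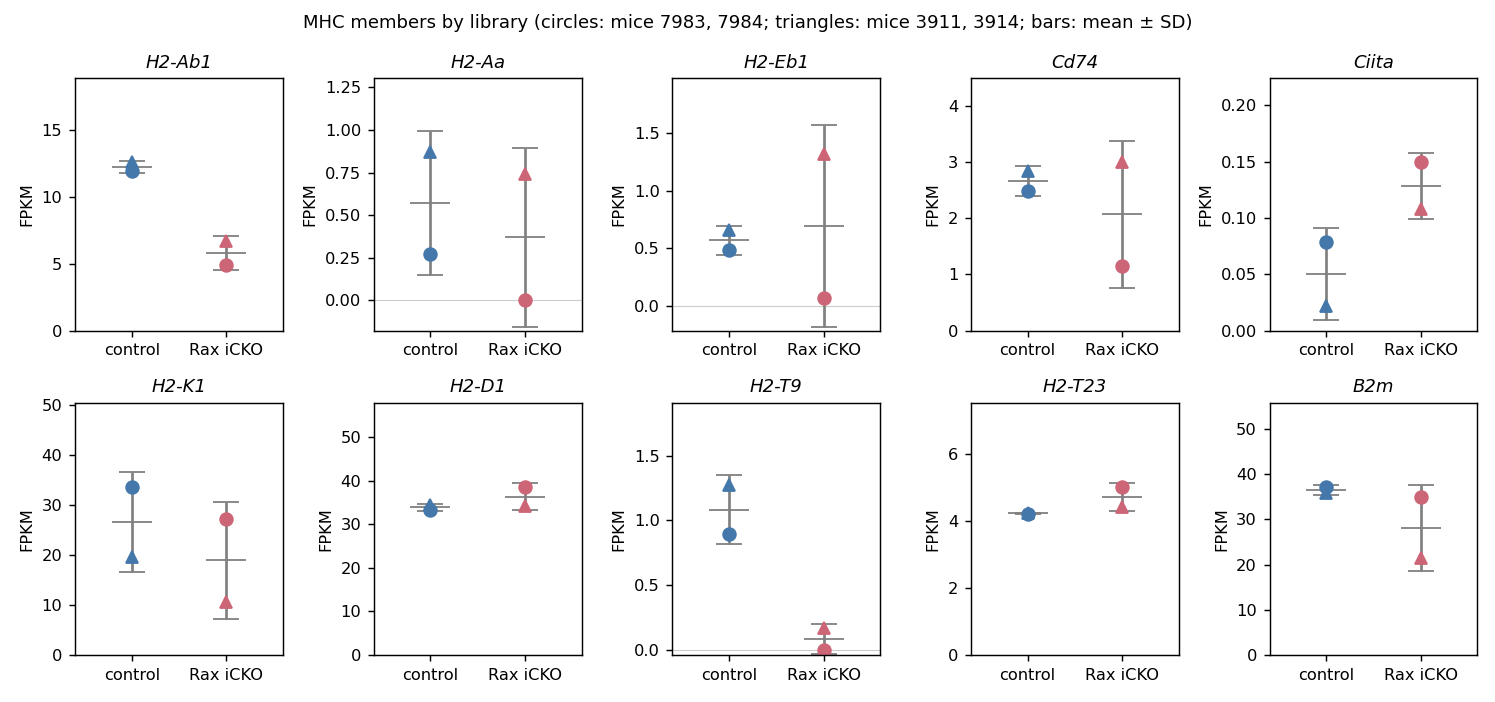
FPKM of the 10 MHC members in each library, control in blue and *Rax* iCKO in red, with circles for mice 7983 and 7984, triangles for mice 3911 and 3914, and bars for the mean and SD (n = 2). Each panel has its own scale. *H2-Ab1* and *H2-T9* have the widest gaps between the groups, while for *H2-Aa*, *H2-Eb1*, *Cd74*, *H2-K1*, *H2-D1* and *B2m* the SD within *Rax* iCKO exceeds the difference between the means.

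*H2-Ab1* encodes the beta chain of the class II molecule I-A and was the most abundant class II gene. Its place is chromosome 17 (GRCm38), 34263227 to 34269418. It was at 11.95 FPKM in control 7984 and 12.6 in control 3911, and 4.91 in *Rax* iCKO 7983 and 6.71 in *Rax* iCKO 3914. The groups did not overlap, and the means were 12.3 ± 0.455 FPKM for control and 5.81 ± 1.27 FPKM for *Rax* iCKO (SD, n = 2), which gave a ratio of 0.473. On the log2(FPKM + 1) scale the difference was -0.98, and it stayed between -1.17 and -0.78 with any 1 library left out. By the length of the transcript, these values stood for about 154 and 118 reads in control and about 47 and 63 reads in *Rax* iCKO. No stretch of a read's length was shared with another annotated transcript.

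*H2-Aa* encodes the alpha chain that pairs with the product of *H2-Ab1*, and its RNA was at the edge of detection. It lies on chromosome 17 from 34282744 to 34287823. Whole reads could be recovered from its FPKM steps, and the library of control 7984 held 3 reads (0.271 FPKM) and that of control 3911 held 7 (0.869 FPKM). *Rax* iCKO 7983 held 0 reads, where 3 reads would have given 0.366 FPKM, and mouse 3914 held 6 (0.742 FPKM). The exact 95% Poisson intervals, which cover counting error only, ran from 0.619 to 8.77 reads for mouse 7984, from 2.81 to 14.4 for mouse 3911, from 0 to 3.69 for mouse 7983 and from 2.20 to 13.1 for mouse 3914. The groups overlapped, and a difference was not detectable at this depth. The difference of -0.22 in mean log2(FPKM + 1) changed sign when control 3911 (0.054) or *Rax* iCKO 7983 (0.18) was left out.

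The FPKM of *H2-Ab1* was 44.0 times that of its partner *H2-Aa* in control 7984, 14.5 times in control 3911 and 9.04 times in *Rax* iCKO 3914, so the RNA of the pair was unequal in each of the 3 libraries with a read of *H2-Aa*. With 3 to 7 reads of *H2-Aa* behind them, these ratios are imprecise.

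*H2-Eb1* encodes the beta chain of the other class II molecule, I-E, and lies on chromosome 17 from 34305867 to 34316674. Its partner gene appears in the files as the pseudogene *H2-Ea-ps*, which was listed at 0 in all 4 libraries. *H2-Eb1* was at 9 reads in each control library, which was 0.481 FPKM in mouse 7984 and 0.660 FPKM in the shallower library of mouse 3911. In *Rax* iCKO it was at 1 read (0.0721 FPKM) in mouse 7983 and at 18 reads (1.32 FPKM) in mouse 3914. Both controls thus lay between the *Rax* iCKO libraries. The exact 95% Poisson intervals of these mice did not overlap, from 0.0253 to 5.57 reads against 10.7 to 28.4, so the *Rax* iCKO mice differed from each other by more than counting error. The group means were 0.571 ± 0.127 and 0.694 ± 0.879 FPKM (SD, n = 2), and the difference of 0.0069 in mean log2(FPKM + 1) took either sign when libraries were left out, from -0.55 to 0.56. An antisense gene, *Gm20513*, overlaps *H2-Eb1*, and whether reads were counted by strand is not given in the sources used here.

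**Figure D2:**
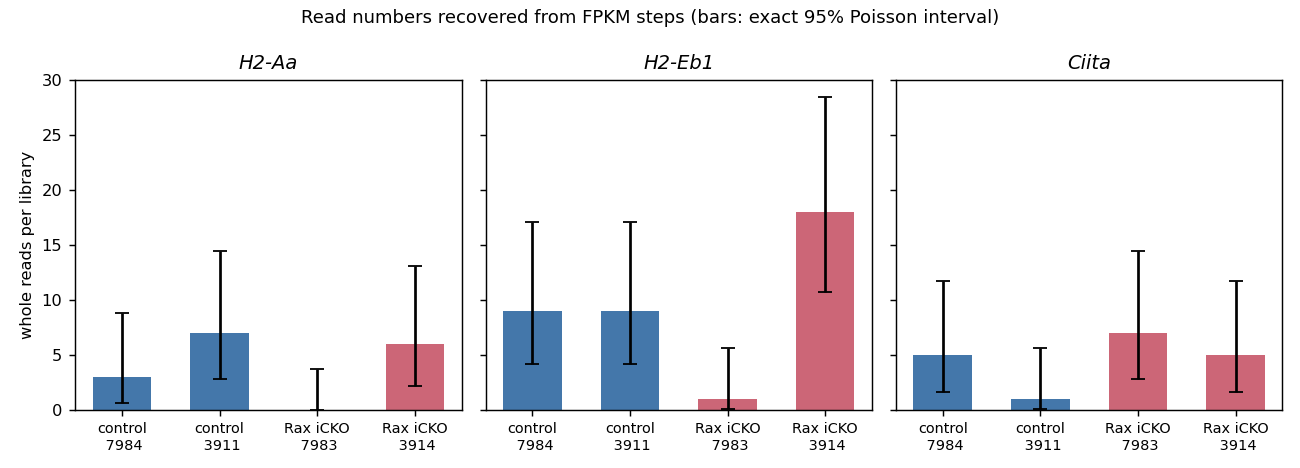
Whole reads per library recovered from FPKM steps for *H2-Aa*, *H2-Eb1* and *Ciita*, with control libraries in blue and *Rax* iCKO libraries in red. Error bars are exact 95% Poisson intervals. The 18 and 1 reads of *H2-Eb1* in the *Rax* iCKO libraries are the only pair within a group whose intervals do not overlap.

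*Cd74* encodes the invariant chain and lies on chromosome 18 from 60803849 to 60812652. It was at 2.47 FPKM in control 7984, 2.84 in control 3911, 1.14 in *Rax* iCKO 7983 and 2.99 in *Rax* iCKO 3914. The lowest and the highest library were both *Rax* iCKO, with about 13 and about 34 reads. The means were 2.66 ± 0.261 FPKM in control and 2.07 ± 1.30 FPKM in *Rax* iCKO (SD, n = 2). The difference of -0.32 in mean log2(FPKM + 1) rested on mouse 7983 and was 0.13 without it. The ratio of *H2-Ab1* to *Cd74* was 4.83 and 4.43 in the controls, 4.29 in mouse 7983 and 2.25 in mouse 3914. In mouse 7983 *H2-Ab1* and *Cd74* were thus both low, whereas in mouse 3914 *H2-Ab1* was low while *Cd74* was at the level of the controls.

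*Ciita* lies on chromosome 16 from 10480014 to 10531064 and was the lowest member in mean FPKM. Its values were 0.0790 FPKM (5 reads) in control 7984, 0.0217 FPKM (1 read) in control 3911, 0.149 FPKM (7 reads) in *Rax* iCKO 7983 and 0.108 FPKM (5 reads) in *Rax* iCKO 3914. Both *Rax* iCKO values were above both controls, at means of 0.129 ± 0.0291 against 0.0503 ± 0.0405 FPKM (SD, n = 2). The intervals of the read numbers nevertheless overlapped between all 4 libraries, also for the most different pair, 1 read (0.0253 to 5.57) and 7 reads (2.81 to 14.4). These intervals are for single libraries and do not compare the groups. With 1 to 7 reads per library and n = 2, no difference between the groups could be established. *Ciita* overlaps *Dexi* on the opposite strand.

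The class II chain genes and *Cd74* were each lowest in *Rax* iCKO 7983, and *H2-Eb1* and *Cd74* were each highest in *Rax* iCKO 3914. Summed over *H2-Ab1*, *H2-Aa* and *H2-Eb1*, the chain genes came to 12.7 and 14.1 FPKM in the controls against 4.98 and 8.77 FPKM in *Rax* iCKO, and *H2-Ab1* made up most of each sum. The sums followed *H2-Ab1* and did not overlap between the groups.

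*H2-K1* encodes a classical class I heavy chain and lies on chromosome 17 from 33996012 to 34000619. It varied most among the abundant class I members, at 33.7 FPKM in control 7984, 19.5 in control 3911, 27.3 in *Rax* iCKO 7983 and 10.6 in *Rax* iCKO 3914. The groups overlapped and the highest library stood at 3.17 times the lowest, with about 608 reads against about 140. The means were 26.6 ± 10.01 FPKM in control and 18.9 ± 11.8 FPKM in *Rax* iCKO (SD, n = 2). The difference of -0.56 in mean log2(FPKM + 1) was 0.083 without *Rax* iCKO 3914. Within the runs of mouse numbers, it was -0.30 for mouse 7983 minus mouse 7984 and -0.82 for mouse 3914 minus mouse 3911, and the labels do not say whether a run stands for a litter or a day.

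*H2-D1*, the other classical heavy chain gene, lies on chromosome 17 from 35263094 to 35267497 and was the most even abundant member. It was at 33.3 and 34.4 FPKM in controls 7984 and 3911 and at 38.6 and 34.1 FPKM in *Rax* iCKO 7983 and 3914, so the highest library was 1.16 times the lowest. The means were 33.8 ± 0.788 and 36.3 ± 3.14 FPKM (SD, n = 2), and the groups overlapped. The FPKM of *H2-D1* was 0.987 times that of *H2-K1* in mouse 7984, 1.76 times in mouse 3911, 1.41 times in mouse 7983 and 3.21 times in mouse 3914. The ratio thus differed within each group and overlapped between the groups. Of the 2002 read-length stretches in the *H2-D1* transcript, 92 (4.60%) also stood in transcripts of *H2-Q1*, *Gm7030* or *H2-T23*, whereas *H2-K1* shared none.

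*B2m* encodes the light chain of all class I molecules and lies on chromosome 2 from 122147687 to 122153082. It was at 37.2 and 35.8 FPKM in controls 7984 and 3911, at 34.8 FPKM in *Rax* iCKO 7983 and at 21.4 FPKM in *Rax* iCKO 3914. Both *Rax* iCKO values were below both controls, but mouse 7983 lay close to the controls and mouse 3914 apart from them. The means were 36.5 ± 1.01 and 28.1 ± 9.49 FPKM (SD, n = 2). The difference of -0.40 in mean log2(FPKM + 1) was -0.064 without mouse 3914. *B2m* over the sum of *H2-K1* and *H2-D1* was 0.555, 0.663, 0.529 and 0.479 for mice 7984, 3911, 7983 and 3914. *B2m* overlaps *Patl2* on the opposite strand.

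*H2-T23* encodes the heavy chain of Qa-1, a nonclassical class I molecule that is read by receptors of natural killer cells. It lies on chromosome 17 from 36029977 to 36032701. Its FPKM was 4.22 and 4.25 in controls 7984 and 3911, and 5.03 and 4.42 in *Rax* iCKO 7983 and 3914. The *Rax* iCKO values were both above the controls, by 1.12 times in the means (4.73 ± 0.428 against 4.23 ± 0.0179 FPKM, SD, n = 2). About 68 and 50 reads in control and about 60 and 52 reads in *Rax* iCKO stood behind these values. Of 1372 read-length stretches of its transcript, 97 (7.07%) also stood in other transcripts, and an antisense gene, *A930015D03Rik*, overlaps *H2-T23*.

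*H2-T9* is a nonclassical class I gene for which no position is given here, since the annotations used list no gene under this symbol. It was at 0.895 and 1.27 FPKM in controls 7984 and 3911, at 0.000234 FPKM in *Rax* iCKO 7983 and at 0.167 FPKM in *Rax* iCKO 3914. The groups did not overlap, with means of 1.08 ± 0.268 and 0.0837 ± 0.118 FPKM (SD, n = 2) and a ratio of 0.0772. The value in mouse 7983 is far below the 0.0721 FPKM that 1 whole read of *H2-Eb1* gave in that library, so it is a fraction of a read, as programs that divide reads among similar genes can give.

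*H2-T10* and *H2-T22*, paralogs of *H2-T9*, were set beside it after their values had been seen. *H2-T22*, higher in both *Rax* iCKO libraries, was at 0.384 and 0 FPKM in the controls and at 1.09 and 0.879 FPKM in *Rax* iCKO. *H2-T10* was at 0.472, 0.567, 0.358 and 0.836 FPKM in mice 7984, 3911, 7983 and 3914, and its groups overlapped. The 3 genes together came to 1.75 and 1.84 FPKM in control (1.80 ± 0.0631, SD, n = 2) and 1.45 and 1.88 FPKM in *Rax* iCKO (1.66 ± 0.308, SD, n = 2), and the groups overlapped. *H2-T9* took 51.1% and 69.2% of these sums in control against 0.0162% and 8.88% in *Rax* iCKO. Of the read-length stretches of the *H2-T22* transcript 13.8% stood in other transcripts too, and of those of *H2-T10* 9.88%. *H2-T24*, another gene of this family that was not in the sum, was at 0.357 and 0.217 FPKM in control and 0.909 and 1.14 FPKM in *Rax* iCKO. Since the genes summed were picked with their values known, the sums are a description, and whether reads were misassigned was not tested.

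**Figure D3:**
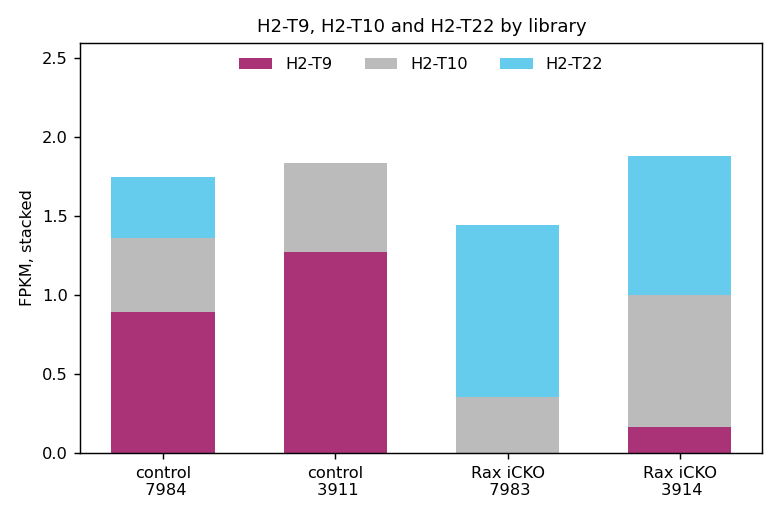
Stacked FPKM of *H2-T9*, *H2-T10* and *H2-T22* in each library. The total lies between 1.45 and 1.88 FPKM in all 4 libraries, while the share of *H2-T9* is 51.1% and 69.2% in control and at most 8.88% in *Rax* iCKO.

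Among the class I members, *H2-T9* had the same order of libraries as *H2-Ab1*. *H2-K1* and *B2m* were instead lowest in *Rax* iCKO 3914, where *H2-Eb1* and *Cd74* were highest. When each gene was centred on its mean over the 4 libraries, the median of *H2-Ab1*, *H2-Aa*, *H2-Eb1* and *Cd74* was lowest in mouse 7983 (-0.58) and stood at 0.29 in mouse 3914, 0.31 in control 3911 and 0.0011 in control 7984. *H2-Ab1* alone was nevertheless at 6.71 FPKM in mouse 3914, below the controls at 11.95 and 12.6 FPKM. *H2-Aa* and *H2-Eb1* held at most 18 reads in any library. The median of *H2-K1*, *H2-D1* and *B2m* was lowest in mouse 3914 (-0.54) and stood at 0.14 in mouse 7983, 0.23 in control 7984 and -0.026 in control 3911.

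Markers of microglia, the resident immune cells of the retina and a usual source of MHC RNA, also differed between libraries. All 19 microglia markers on the list were in the files, and their summed level was 83.1 and 94.1 FPKM in control, 136 FPKM in *Rax* iCKO 7983 and 24.99 FPKM in *Rax* iCKO 3914. The defining marker *Csf1r* was at 5.21, 3.25, 10.8 and 0.467 FPKM in mice 7984, 3911, 7983 and 3914. The class II chain genes and *Cd74* were lowest in the library with the most microglial RNA, where *H2-Aa* held 0 reads and *H2-Eb1* 1. In the library with the least, *H2-K1* and *B2m* were lowest, and *H2-Ab1*, at 6.71 FPKM, was also below both controls. The cysteine protease gene *Ctss*, which trims the invariant chain in phagocytes, went with the microglial sum, at 16.3, 13.8, 24.8 and 3.71 FPKM. None of the 14 microglia markers tested had groups that did not overlap, and their median difference of -0.37 was 0.61 without mouse 3914 and -1.38 without mouse 7983. The part of microglia in the class I and class II values was not tested.

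**Figure D4:**
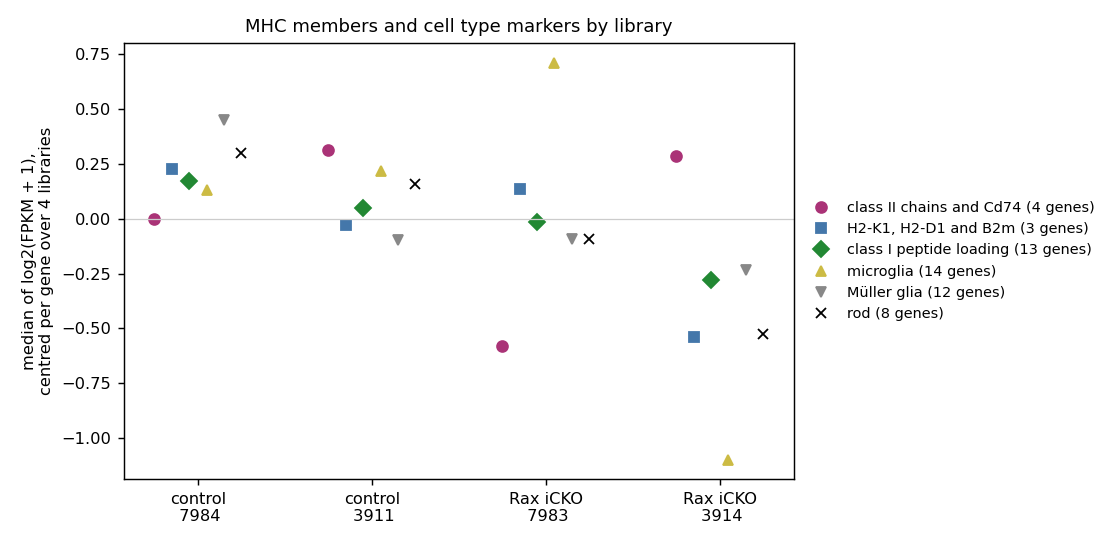
Median log2(FPKM + 1) of each gene group in each library after centring every gene on its mean over the 4 libraries. The median of class II genes with *Cd74* is lowest in *Rax* iCKO 7983 (-0.58), where microglia markers are highest (0.71). *H2-Ab1* alone was below both controls in *Rax* iCKO 3914 too. The median of *H2-K1*, *H2-D1* and *B2m* is lowest in *Rax* iCKO 3914 (-0.54), where microglia markers are lowest (-1.10), but *H2-D1* alone was lowest in control 7984.

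Marker lists of other cell types that a retinal sort could hold were summed in the same way. The B cell markers summed to 0.108 to 0.532 FPKM in control and 0.191 to 0.307 FPKM in *Rax* iCKO, with *Pax5* listed at 0 in every library and *Ms4a1* at 0 in 3 of 4. The dendritic cell list summed to 4.10 and 4.30 FPKM in control and 4.25 and 4.04 FPKM in *Rax* iCKO, of which *Zbtb46* made up 3.54 to 3.73 FPKM, *Xcr1* was at 0.185 to 0.373 FPKM, and *Clec9a* and *Cd209a* were listed at 0 in all 4 libraries. The perivascular macrophage list summed to 7.33 and 17.7 FPKM in control and 12.99 and 18.4 FPKM in *Rax* iCKO, nearly all of it *Lyve1*. The groups overlapped for *Lyve1*. *Mrc1* (0.0307 and 0.0631 FPKM in control, 0 in both *Rax* iCKO libraries) and *F13a1* (0.666 and 0.324 FPKM in control, 0.0869 and 0.176 FPKM in *Rax* iCKO) were lower in both *Rax* iCKO libraries. In the other lists of this paragraph, *Batf3*, *Cd8a*, *Nkg7*, *Cdh5*, *Cldn5* and *Aldh1l1* were also lower in both, and *Itgax* and *Cd4* higher in both. Of all genes above 0, 14.5% were lower in both and 13.7% higher in both. *Cd163*, *Pf4* and *Cbr2* were each above 0 in 1 control only, and *Ms4a7* was at 0 and 0.400 FPKM in control and 0.0982 and 0.199 FPKM in *Rax* iCKO. T and NK cell markers summed to at most 0.332 FPKM, with *Cd3e* and *Cd3d* at 0 throughout. Neutrophil markers reached 28.3 FPKM in control 7984 and 1.88 FPKM in *Rax* iCKO 7983 and were at 0 in the other two libraries. The endothelial list summed to 501 and 257 FPKM in control and 416 and 271 FPKM in *Rax* iCKO, mostly *Kdr*, and the defining genes *Pecam1* and *Cdh5* were under 1 FPKM in each library. The pericyte list, at 26.7, 11.0, 24.3 and 13.05 FPKM in mice 7984, 3911, 7983 and 3914, was mostly *Pdgfrb*. The 4 astrocyte genes summed to 51.5, 43.4, 28.7 and 31.3 FPKM in the same order, mostly *Aldh1l1*, which Müller glia also express, and *Pax2* was at most 0.0381 FPKM. Their part in the class II values was not tested.

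Of 8 markers of rod photoreceptors 7 had both *Rax* iCKO libraries below both controls, against 14.1% of all genes with a mean FPKM of 1 or more. Their median difference was -0.63 (-0.40 without *Rax* iCKO 3914), and their sum was 1365 and 1342 FPKM in control against 912 and 792 FPKM in *Rax* iCKO. Of the 12 Müller glia markers 4 did so, at a median of -0.31, which was -0.049 without control 7984, -0.60 without control 3911 and -0.11 after quantile normalization. limma called none of the rod or Müller markers, with an unadjusted p under 0.05 for 3 rod markers and 0 Müller markers, while the fit with a replicate block set by runs of mouse numbers called 2 rod markers. The part of this shift in the values of *H2-Ab1* and *B2m*, which were lower in both *Rax* iCKO libraries as well, was not tested.

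The other genes of antigen presentation were taken from 7 lists of 103 genes, of which 55 had a mean FPKM of at least 1. limma called 0 of the 55 after Benjamini-Hochberg adjustment over all 12363 genes, and 1 had an unadjusted p under 0.05, a share of 1.82% beside 2.86% of all genes tested. Both *Rax* iCKO libraries were below both controls for 16 of the 55 (29.1%) and above them for 6 (10.9%), against 14.1% and 15.4% of all 12363 genes. The p-values measure the spread between these 4 mice only, and an exact permutation test of 2 against 2 cannot go below 0.333.

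Genes that make and load class I peptides made up the list with 14 genes, of which 13 were tested and none was called. In 6 of the 13 both *Rax* iCKO libraries were below both controls and in 0 above, against 14.1% and 15.4% of all genes tested, and the median difference was -0.29, beside -0.0044 over all genes tested. The median ran from -0.43 to -0.16 with any 1 library left out and was -0.18 after quantile normalization. Müller glia markers (median -0.31) and rod markers (median -0.63) were lower as well, and their part in this list was not tested. *Psmb8*, *Psmb9* and *Psmb10*, the catalytic subunits of the immunoproteasome, were all lower in both *Rax* iCKO libraries. *Psmb8* was at 8.53 and 11.3 FPKM in control and 6.53 and 3.05 FPKM in *Rax* iCKO, a difference of -0.97 ± 0.36 (SE, unadjusted p = 0.0366 and adjusted p = 0.9999 from limma). *Psmb9* was at 5.06 and 4.10 against 3.68 and 2.49 FPKM, and *Psmb10* at 22.8 and 28.9 against 17.3 and 21.6 FPKM, with differences of -0.46 and -0.39. *Pdia3*, a chaperone of the loading complex, was at 248 and 245 FPKM in control and 221 and 172 FPKM in *Rax* iCKO. *Tap1* and *Tap2*, whose products carry peptides to class I molecules, overlapped between the groups. *Nlrc5*, the class I counterpart of *Ciita*, was at 4 and 0 reads in control and 13 and 1 reads in *Rax* iCKO.

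Among regulators of class II genes and the interferon gamma pathway, 16 of 19 genes were tested, 3 were higher in both *Rax* iCKO libraries and 2 lower, and the median difference was -0.0070, which ran from -0.047 to 0.12 with any 1 library left out. *Rfx5*, a subunit of the RFX complex on class II promoters, was at 9.43 and 7.77 FPKM in control and 11.9 and 13.3 FPKM in *Rax* iCKO, a difference of 0.50, and *Rfxap*, another subunit, differed by 0.18. *Socs1*, an inhibitor of interferon gamma signalling, was at 1.93 and 1.69 against 1.04 and 0.211 FPKM (difference -0.84), and the receptor gene *Ifngr2* differed by -0.23. *Ifng* itself was listed at 0 in all 4 libraries. Of the 21 interferon-induced genes 10 were tested, with 1 higher (*Stat2*, 0.35), 1 lower (*Irgm1*, -0.22) and a median of -0.077, which was 0.071 without *Rax* iCKO 3914 and -0.17 without *Rax* iCKO 7983.

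Of the other class II genes, only *H2-DMa*, a subunit of the peptide editor of class II, had a mean FPKM of at least 1, at 3.45 and 1.40 FPKM in control and 2.40 and 1.69 FPKM in *Rax* iCKO. Its partner *H2-DMb1* was at 16 and 5 reads in control and 7 and 1 reads in *Rax* iCKO, and *H2-Eb2* and *H2-DMb2* were listed at 0 in all 4 libraries. The 6 genes of invariant chain proteolysis were all tested, with 1 higher (*Ifi30*, a thiol reductase, 0.55) and 3 lower, among them *Ctsl* at 345 and 294 against 248 and 223 FPKM (difference -0.44). Their median of -0.13 was 0.042 after quantile normalization. Of 28 other class I genes 8 were tested, with 1 higher (*H2-K2*, 0.50), 3 lower and a median of -0.29. Over the 22 genes above 0 in any library the median was -0.034, and *H2-T22*, *H2-T24*, *H2-Q5* and *H2-M5*, with means under 1 FPKM, were higher in both *Rax* iCKO libraries, whereas *H2-M3*, *H2-Bl* and *H2-Q9*, also under 1 FPKM, were lower in both. The lower ones of the 8 were *Fcgrt*, whose product is the neonatal Fc receptor and also binds beta-2-microglobulin, at 24.5 and 23.3 against 17.4 and 16.6 FPKM, with *H2-Q4* and *Cd1d1*. Among the other class I genes, *H2-Q6* and *H2-Q8* had values as low as 3.50e-05 and 0.000842 FPKM, fractions of a read as seen for *H2-T9*. Of 7 costimulatory genes *Cd83* was the only one tested, at 2.27 and 2.44 against 1.36 and 1.66 FPKM, while *Cd80* was listed at 0 in each library.

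**Figure D5:**
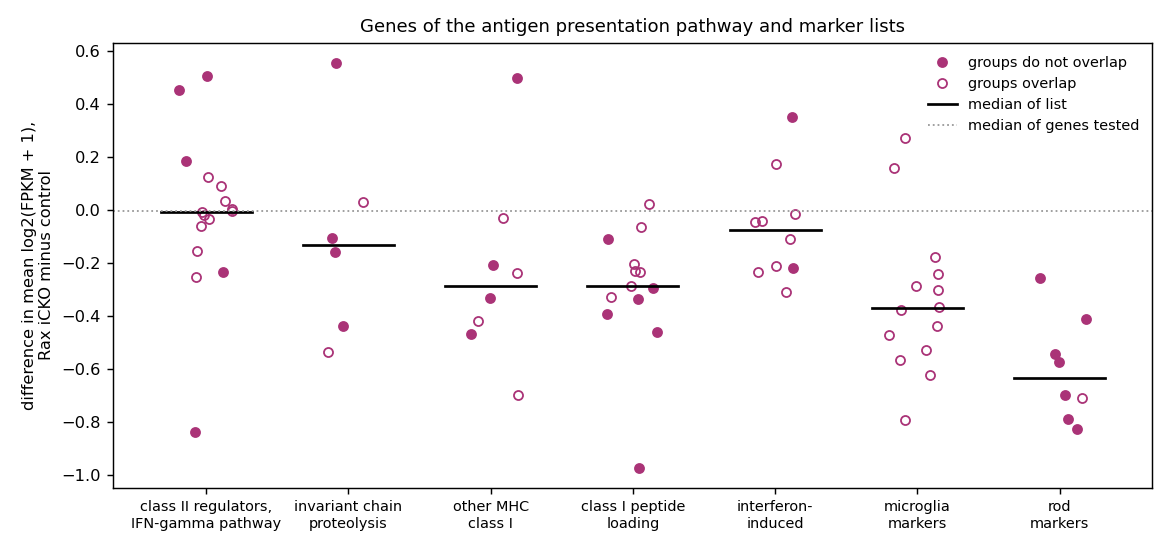
Difference in mean log2(FPKM + 1), *Rax* iCKO minus control, for genes of the antigen presentation lists and of the microglia and rod markers with a mean FPKM of at least 1. Each point is a gene, filled where the groups do not overlap, and bars are medians. The peptide loading list (median -0.29) lies below 0 for nearly all its genes, and rod markers lie lower (median -0.63).

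Genes whose pattern over the 4 libraries was most like that of a class II member were found by the root mean square distance of centred log2(FPKM + 1). For *Cd74* these were *Pinx1* (0.0427), *Tsga10* (0.0479), *2610044O15Rik8* (0.0582), *Mfap4* (0.0584) and *Whamm* (0.0641). For *H2-Ab1* they were *Tes* (0.0671), *Ghrh* (0.0900), *Gsta4* (0.109), *2310010J17Rik* (0.110) and *Dapl1* (0.114). Neither list of 5 holds an MHC gene or a microglia marker. With 4 libraries and 12363 genes compared, such closeness is a description only.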

How the data were processed

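RNA of mTFP-positive retinal cells sorted by FACS was sequenced in 4 libraries, 2 control and 2 *Rax* iCKO, with single-end reads from full-length cDNA made with SMART-Seq HT and NexteraXT kits. The authors used TopHat with Bowtie2 on mm10, and the deposited values are FPKM from Cufflinks, 1 per gene and library, normalized for transcript length and mapped reads. The versions named in the methods and in the processing notes differ, as does the RNA isolation kit, and the annotation and strand setting are not given in the sources used here. Samples were grouped by the genotype in the labels. No reads or counts were used as such: whole reads of low genes and relative depths were recovered from steps in the FPKM. Approximate reads of other members used the GENCODE vM21 transcript length less 200 bases, and intervals cover counting error only.

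The test of genotype was a limma 3.58.1 fit (R 4.3.3, empirical Bayes with a variance trend) to log2(FPKM + 1), a scale that understates changes of low genes. It took the 12363 genes whose mean FPKM reached 1, and p-values were adjusted by Benjamini-Hochberg over all of them. The fit was tested on simulated data. The 10 members and the gene lists were chosen with earlier results of these data known. Genes named besides the members were those called, up to 4 per list by size of difference among those whose groups did not overlap, defining markers, and the 5 nearest in pattern to *Cd74* and *H2-Ab1*. Genes named outside this rule, such as *Ctss*, *Tap1*, *Nlrc5*, *H2-T10* and *H2-T22*, were picked after their values were seen. Alternatives were a pseudocount of 0.1, no filter or a minimum of 5, medians set equal, quantile normalization, a fit without the variance trend, a replicate block set by runs of mouse numbers, and the removal of each library in turn. Some genes of the lists are not reported here by name.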

Additional observations from a re-analysis of the deposited data

How the results depend on the processing

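Over all genes, 1 was called higher and 2 lower in *Rax* iCKO. The higher count was 0 without a filter, 0 with a mean FPKM of at least 5, 2 after quantile normalization, 3 with equal medians and 8 to 14 with a library left out. The lower count was 0 without a filter, 0 with a mean FPKM of at least 5 and 5 to 12 with a library left out. With a replicate block set by the run of mouse numbers, 24 were called higher and 47 lower, but the labels do not say that a run pairs the mice. None of the other 55 antigen presentation genes was called in any of these settings. With an arm of 1 library, limma assumes that this library varies like those of the other group. The median difference of the 10 members, -0.27, was -0.46 at a pseudocount of 0.1, -0.48 over those with a mean FPKM of at least 5 and -0.31 to 0.032 with a library left out. Of 70 values (10 members, 7 alternatives each), 59 kept their sign within the spread between replicates, 3 moved further and 8 changed sign. The 3 were at a pseudocount of 0.1, *H2-Aa* at -1.05, *Ciita* at 0.63 and *H2-T9* at -2.84. Those that changed sign were *H2-Eb1* at a pseudocount of 0.1 (-0.43) and with equal medians (-0.016), and, with a library left out, *H2-Aa* (range -0.62 to 0.18), *H2-Eb1* (-0.55 to 0.56), *Cd74* (-0.77 to 0.13) and *H2-K1* (-1.20 to 0.083). The cause was not tested. *H2-Ab1*, *H2-T9*, *B2m*, *Ciita*, *H2-D1* and *H2-T23* kept their sign in all 7. The depth limits *H2-Aa*, *H2-Eb1* and *Ciita*, with at most 18 reads in any library.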
